A study of Homo sapiens with 18 samples.

Results

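The aldo-keto reductases described here are AKR7A2, AKR7A3, AKR1A1, AKR1B1, AKR1B10, AKR1C1, AKR1C2 and AKR1C3, 8 human genes measured in 786-O cells, a clear cell renal carcinoma (ccRCC) line that lacks the tumor suppressor VHL. AKR7A2 and AKR7A3 were chosen because their signal rose after both shRNAs of the study, and the other 6 are relatives of the same superfamily. Of the 8 genes, 6 had a row in the deposited table of 13141 genes. AKR1C1 and AKR1C2 had no row under their symbol or a RefSeq synonym and were not analysed here.

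The study compared 6 groups of 3 Illumina HumanHT-12 V4 arrays. *VHL-/-* cells and *VHL+/+* cells, in which VHL had been put back, each carried a scramble control shRNA (SCR), an shRNA against PBRM1 (shRNA-94) or an shRNA against KDM5C (shRNA-60). PBRM1 is a subunit of the PBAF chromatin remodelling complex and KDM5C is a histone H3 lysine 4 demethylase. The knockdowns were stable, each gene was targeted by 1 shRNA, and the parent was 1 cell line. Nothing in the labels says that the 3 arrays of a group came from separate cultures, so the p-values measure the spread between these samples, which may be technical.

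Aldo-keto reductases use NADPH to reduce aldehydes and ketones to alcohols, and act on sugars, steroids, prostaglandins and reactive aldehydes from lipid peroxidation or xenobiotics. The AKR7A enzymes reduce the dialdehyde form of aflatoxin, and AKR7A2 also turns succinic semialdehyde into gamma-hydroxybutyrate. The AKR1B enzymes reduce glucose, retinal and lipid aldehydes, and the AKR1C enzymes act mainly on steroids and prostaglandins. Several members of the superfamily are known targets of NRF2, the transcription factor of the antioxidant response.

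All values are log2 signal, quantile normalised by the authors with the probes of a gene averaged. The table ran from 6.27 to 14.66 with a median of 7.65, and arrays of 1 group correlated with r between 0.976 and 0.995 across genes. The arrays came from 2 bead chips, with chip 1 holding the first 2 replicates of each group (12 arrays) and chip 2 the remaining replicate (6 arrays), and the chip was a term of every fit. Between the chips 1.44% of genes passed the call rule used below. The renal epithelial marker PAX8 was measured in all groups, with group means of 8.26 to 8.71, whereas PECAM1 of endothelium stayed between 6.57 and 6.94, near the floor of the table. The labels could be checked only in part. PBRM1 differed from SCR by -0.06 ± 0.12 (log2 fold change ± SE) in *VHL-/-* cells and by -0.15 ± 0.12 in *VHL+/+* cells on the arrays labelled PBRM1 shRNA (limma adjusted p = 0.864 and 0.639). KDM5C had no row, and VHL itself differed by 0.08 ± 0.09 between the SCR groups (adjusted p = 0.766). CA12, a hypoxia-inducible carbonic anhydrase, was lower in *VHL+/+* cells, by -1.47 ± 0.18 in SCR (limma adjusted p = 0.000228). The direction of every shRNA comparison therefore rests on the array labels.

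AKR7A2 and AKR7A3 lie beside each other on chromosome 1 and are transcribed from the same strand. Their promoter windows are shown because the pair moved together on the arrays. Each is the 250 bases before the start of the gene, from RefSeq on GRCh38.p14, read 5′ to 3′ on the minus strand. Capitals mark matches, on either strand, to TGACNNNGC, the core of the antioxidant response element bound by NRF2, or to ACGTG, the core of the hypoxia response element bound by HIF.
AKR7A2 (chr1:19312147-19312396): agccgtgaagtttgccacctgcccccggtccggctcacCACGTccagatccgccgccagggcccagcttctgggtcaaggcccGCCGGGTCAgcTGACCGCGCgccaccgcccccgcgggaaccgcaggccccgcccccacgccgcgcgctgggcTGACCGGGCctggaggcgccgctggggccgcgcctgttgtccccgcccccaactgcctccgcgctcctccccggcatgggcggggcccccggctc
AKR7A3 (chr1:19288771-19289020): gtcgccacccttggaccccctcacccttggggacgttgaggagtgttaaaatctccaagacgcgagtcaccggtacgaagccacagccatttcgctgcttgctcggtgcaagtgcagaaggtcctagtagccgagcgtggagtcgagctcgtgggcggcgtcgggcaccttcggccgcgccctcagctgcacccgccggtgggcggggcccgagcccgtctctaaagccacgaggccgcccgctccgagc
The AKR7A2 window held 3 matches to TGACNNNGC, which began 167, 156 and 95 bases before the start of the gene, and 1 match to ACGTG. None of the 4 matches overlapped another. The AKR7A3 window held neither motif. Of 35116 RefSeq promoter windows of this length, 10.9% held TGACNNNGC and 18.5% held ACGTG, and 18 windows, the AKR7A2 windows among them, held TGACNNNGC at least 3 times. Among the other members, the AKR1A1 window held ACGTG 3 times, the AKR1B1, AKR1C1, AKR1C2 and AKR1C3 windows held neither motif, and AKR1B10 was not listed. A match is a run of letters and does not show that a factor binds there.

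AKR7A2 was lower on every SCR array than on any shRNA array, and lay above the table median of 7.65 on all of them. Its log2 signal on the SCR arrays was 9.22, 9.09 and 8.92 in *VHL-/-* cells and 9.17, 9.35 and 9.19 in *VHL+/+* cells. The PBRM1 shRNA arrays read 11.02, 10.87 and 10.75 in *VHL-/-* cells and 10.69, 10.87 and 11.10 in *VHL+/+* cells. The KDM5C shRNA arrays read 10.93, 10.76 and 11.01 in *VHL-/-* cells and 10.99, 10.89 and 10.97 in *VHL+/+* cells. The lowest of the 12 shRNA arrays thus lay above the highest of the 6 SCR arrays, in both VHL backgrounds. As a fold change against SCR, AKR7A2 was 3.50-fold higher with PBRM1 shRNA and 3.53-fold higher with KDM5C shRNA in *VHL-/-* cells. In *VHL+/+* cells the folds were 3.13 and 3.28. By size of log2 fold change AKR7A2 ranked 2, 2, 2 and 1 among 13141 genes in these 4 comparisons, in the order PBRM1 shRNA in *VHL-/-* and *VHL+/+* cells, then KDM5C shRNA in *VHL-/-* and *VHL+/+* cells. These rises chose the gene and are given without a test. The arrays measured bulk RNA, so a change in the share of expressing cells and a change per cell cannot be told apart. The PBRM1 and KDM5C shRNA groups of a VHL background share their SCR arrays.

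AKR7A3 had the same pattern over a smaller range. The SCR arrays read 7.62, 7.51 and 7.52 in *VHL-/-* cells and 7.78, 7.80 and 7.76 in *VHL+/+* cells. With PBRM1 shRNA the values were 8.82, 8.81 and 8.82 in *VHL-/-* cells and 8.98, 8.98 and 9.23 in *VHL+/+* cells. With KDM5C shRNA they were 8.59, 8.92 and 9.06 in *VHL-/-* cells and 8.99, 8.91 and 9.04 in *VHL+/+* cells. Again no SCR array reached any shRNA array. The folds against SCR were 2.40 and 2.43 for PBRM1 shRNA and 2.47 and 2.29 for KDM5C shRNA, in *VHL-/-* and *VHL+/+* cells, and the ranks in the order above were 7, 4, 6 and 7. The probes of AKR7A2, AKR7A3 and AKR7L, which are near copies of each other, could share signal, and this was not tested.

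**Figure D1:**
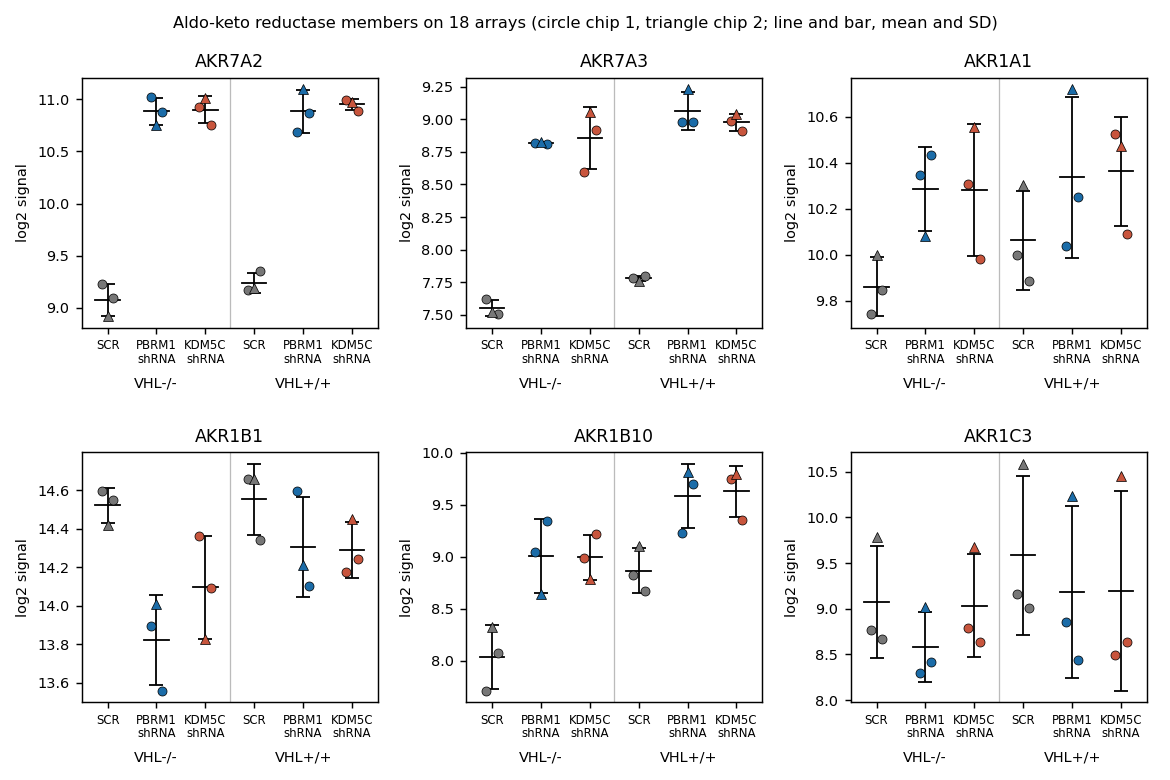
Log2 signal (y axis) of the 6 measured members on 18 arrays in the 6 groups (x axis), with circles for chip 1, triangles for chip 2, and a line and bar for the mean and SD of 3 arrays; each panel has its own scale. AKR7A2 and AKR7A3 sit apart on SCR and shRNA arrays in both VHL backgrounds, AKR1B10 climbs in steps, AKR1B1 is lowest with PBRM1 shRNA in *VHL-/-* cells, and the AKR1C3 chip 2 arrays lie above the chip 1 arrays of their group.

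The pair was chosen for rising after both shRNAs, and both shRNA groups of a background share their SCR arrays, so a large difference between the shRNAs was unlikely by that choice. The differences are given with their intervals. AKR7A2 differed between the PBRM1 and KDM5C shRNAs by -0.01 (95% confidence interval -0.25 to 0.22) in *VHL-/-* cells and by -0.07 (-0.30 to 0.16) in *VHL+/+* cells on the log2 scale. For AKR7A3 these differences were -0.04 (-0.23 to 0.15) and 0.09 (-0.11 to 0.28). The difference in the PBRM1 shRNA effect between *VHL+/+* and *VHL-/-* cells was -0.16 (-0.49 to 0.17) for AKR7A2 and 0.02 (-0.25 to 0.29) for AKR7A3, and that of the KDM5C shRNA effect was -0.11 for both genes. None of these passed the test (limma adjusted p of 0.899 or more). No gene of the table was called in any of these 4 comparisons (0%), with 707 and 545 genes at an unadjusted p under 0.05 between the shRNAs and 553 and 1014 between the VHL backgrounds. These counts of 0 did not hold in every alternative. Within chip 1, 15 genes were called between the shRNAs in *VHL-/-* cells, 10 for the difference in the PBRM1 shRNA effect and 4 for that in the KDM5C shRNA effect, and with 1 array left out the highest counts were 1 and 0 between the shRNAs and 12 and 13 between the backgrounds. No member was among the genes called within chip 1 or with 1 array left out.

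VHL status itself moved AKR7A2 little, by 0.16 ± 0.11 in SCR, 0.00 ± 0.11 with PBRM1 shRNA and 0.05 ± 0.11 with KDM5C shRNA (log2 fold change ± SE, *VHL+/+* against *VHL-/-*; limma adjusted p of 0.540 or more). AKR7A3 differed by 0.23 ± 0.09, 0.25 ± 0.09 and 0.12 ± 0.09 in the same order (limma adjusted p = 0.213, 0.206 and 0.596). Every *VHL+/+* SCR array of AKR7A3 lay above every *VHL-/-* SCR array. Averaged over the 3 shRNA conditions, a comparison added after the data were seen, AKR7A3 was higher in *VHL+/+* cells by 0.20 ± 0.05 (limma adjusted p = 0.0192), a fold of 1.15 that stayed under the fold threshold of 1.5. For AKR7A2 the same average was 0.07 ± 0.06 (limma adjusted p = 0.558).

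In the order of the 6 group levels after removal of the chip difference, AKR7A2 was lowest in the SCR groups, which overlapped each other, followed after a gap by the 4 shRNA groups, each of which overlapped the next. AKR7A3 was lowest in *VHL-/-* SCR, then *VHL+/+* SCR without overlap, then after a gap the 4 shRNA groups, each of which overlapped the next. Not all of these overlapped each other: *VHL-/-* PBRM1 shRNA (highest array 8.85) lay wholly below *VHL+/+* PBRM1 shRNA (lowest array 9.01). The signals of the pair correlated with r = 0.98 over the 18 arrays and with r = 0.46 within groups, and these arrays share the group differences that chose the pair. The genes most like AKR7A2 over the 18 arrays were IGSF3 (r = 0.983), AKR7A3 (0.980), C2CD2 (0.978), KTELC1 (0.973) and ARPC4 (0.972). Those most like AKR7A3 were AKR7A2, IGSF3 (0.979), COMMD8 (0.973), C21ORF2 (0.972) and SEPHS1 (0.971).

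**Figure D2:**
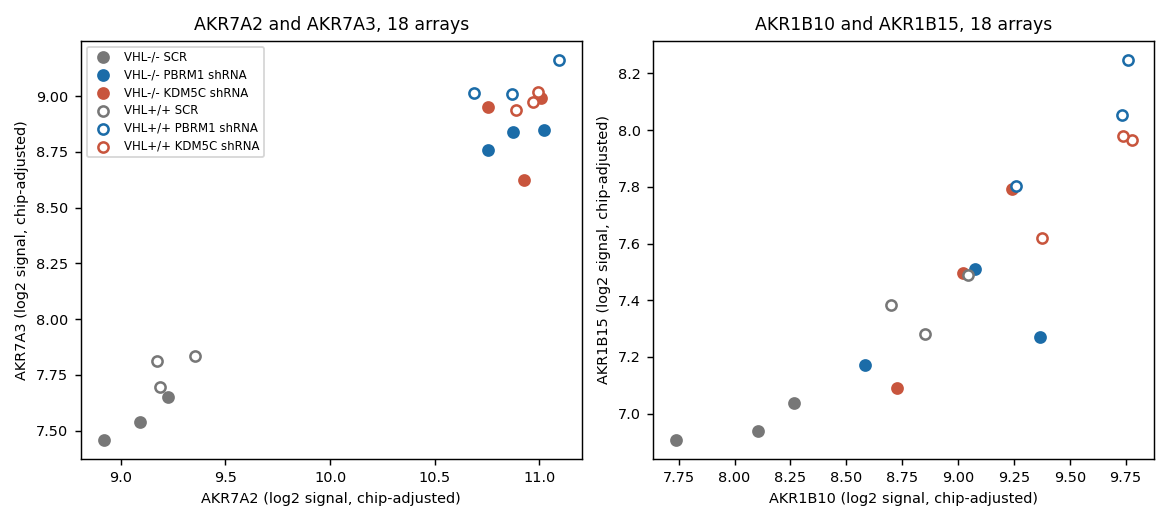
Chip-adjusted log2 signal of AKR7A2 against AKR7A3 (left) and AKR1B10 against AKR1B15 (right) on 18 arrays, coloured by shRNA, with filled points for *VHL-/-* and open points for *VHL+/+* cells. The AKR7A pair falls into 6 SCR arrays at the lower left and 12 shRNA arrays at the upper right, whereas AKR1B10 and AKR1B15 spread along a line.

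A gene was called where the limma adjusted p was under 0.05, with Benjamini-Hochberg adjustment over all 13141 genes, and the fold was at least 1.5. With PBRM1 shRNA in *VHL-/-* cells 3 of the 6 members were called higher (AKR7A2, AKR7A3 and AKR1B10), against 0.921% of all genes, and 1 was called lower (AKR1B1), against 0.890%. With PBRM1 shRNA in *VHL+/+* cells 2 were called higher, against 0.639%, and those were the pair itself. With KDM5C shRNA AKR1B10 joined the pair in both backgrounds, so that 3 of 6 were called higher, against 0.807% of all genes in *VHL-/-* and 0.715% in *VHL+/+* cells. Since the pair was chosen on these contrasts, nothing is read from its part in these counts. Of the other 4, AKR1A1 and AKR1B10 lay above 0 and AKR1B1 and AKR1C3 below 0 in all 4 contrasts.

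AKR1B10, which reduces retinal and lipid aldehydes and is often raised in carcinomas, rose with both shRNAs and was higher with VHL. The *VHL-/-* arrays read 7.71, 8.08 and 8.32 with SCR, 9.05, 9.34 and 8.64 with PBRM1 shRNA and 8.99, 9.22 and 8.78 with KDM5C shRNA. The *VHL+/+* arrays read 8.83, 8.67 and 9.10 with SCR, 9.23, 9.70 and 9.82 with PBRM1 shRNA and 9.75, 9.35 and 9.79 with KDM5C shRNA. Within each background every shRNA array exceeded every SCR array, and every *VHL+/+* SCR array exceeded every *VHL-/-* SCR array. In *VHL-/-* cells AKR1B10 rose 1.96-fold with PBRM1 shRNA (log2 fold change 0.97 ± 0.20, SE, limma adjusted p = 0.00814) and 1.95-fold with KDM5C shRNA (0.96 ± 0.20, limma adjusted p = 0.00945). In *VHL+/+* cells it rose 1.70-fold with KDM5C shRNA (0.76 ± 0.20, limma adjusted p = 0.0428), and the PBRM1 shRNA difference of 0.72 ± 0.20 did not pass (limma adjusted p = 0.0763). Whether the shRNA effects differed between the backgrounds was tested, and the differences of -0.26 (95% confidence interval -0.86 to 0.35) and -0.20 (-0.80 to 0.41) did not pass. By rank of log2 fold change AKR1B10 stood at 25, 51, 23 and 43 among all genes.

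Some of these calls rested on few arrays. The *VHL-/-* rises fell to 0.82 (limma adjusted p = 0.0559) for PBRM1 and 0.80 (0.0642) for KDM5C shRNA without replicate 1 of *VHL-/-* SCR, the lowest array, and the first fell to 0.79 (0.0581) without replicate 2 of its shRNA group. AKR1B10 also rose by less on chip 2 (0.32 and 0.46) than on chip 1 (1.30 and 1.21) in *VHL-/-* cells. The KDM5C call in *VHL+/+* cells was kept in 17 of 28 alternatives, and its log2 fold change stayed between 0.68 and 0.90 in all of them. It was lost when any *VHL+/+* SCR array was left out (limma adjusted p of 0.139, 0.130 and 0.0618 for replicates 1, 2 and 3), and without replicate 1 (0.138) or 3 (0.146) of *VHL+/+* KDM5C shRNA. The adjusted p also rose just above 0.05 without replicate 2 of *VHL+/+* PBRM1 shRNA (0.0515), replicate 2 of *VHL-/-* SCR (0.0559) or replicate 1 of *VHL-/-* PBRM1 shRNA (0.0532), which enter only through the shared variance, and was 0.0847 without the chip term and 0.0563 within chip 1. Conversely, the PBRM1 difference in *VHL+/+* cells passed without replicate 1 of its shRNA group (0.89, limma adjusted p = 0.0339) and without replicate 3 of *VHL-/-* PBRM1 shRNA (0.0273), and on the arrays of that contrast alone (0.0214).

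Among SCR cells AKR1B10 was 1.78-fold higher in *VHL+/+* than in *VHL-/-* cells (log2 fold change 0.83 ± 0.20, limma adjusted p = 0.0323), and it was the only one of the 6 members called there, beside 0.342% of all genes called higher. The call was lost without any of 5 of the 6 SCR arrays, with log2 fold changes from 0.68 to 0.92 and limma adjusted p of 0.114, 0.0524 and 0.128 without *VHL+/+* replicates 1, 2 and 3 and of 0.175 and 0.0911 without *VHL-/-* replicates 1 and 2, and was lost without the chip term (0.0734). No member was called for VHL with PBRM1 shRNA or with KDM5C shRNA, where 1.02% and 0.890% of all genes were. AKR1B10 differed there by 0.58 ± 0.20 (limma adjusted p = 0.176) and 0.63 ± 0.20 (0.121), and the second value passed without replicate 3 of *VHL-/-* PBRM1 shRNA (0.0483). Averaged over the 3 shRNA conditions, the comparison added after the data were seen, AKR1B10 was 1.60-fold higher in *VHL+/+* cells (0.68 ± 0.12, limma adjusted p = 0.00089, with 0.342% of all genes called higher), and no omission of 1 array ended this call. It ended within chip 1, where the difference was 0.52 and under the fold threshold, against 0.99 on chip 2.

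AKR1B15, a near copy of AKR1B10 that acts on steroids and ketones, followed it. In *VHL-/-* cells it read 6.90, 6.93 and 7.06 with SCR, 7.50, 7.26 and 7.19 with PBRM1 shRNA and 7.49, 7.78 and 7.11 with KDM5C shRNA. In *VHL+/+* cells it read 7.27, 7.37 and 7.51 with SCR, 7.79, 8.04 and 8.27 with PBRM1 shRNA and 7.96, 7.61 and 8.0 with KDM5C shRNA. As for AKR1B10, every shRNA array exceeded every SCR array of its background. The call rule was met with PBRM1 shRNA in *VHL+/+* cells (0.65 ± 0.16, limma adjusted p = 0.0329) and for VHL among PBRM1 shRNA cells (0.72 ± 0.16, limma adjusted p = 0.0191). The first call was lost without any *VHL+/+* SCR array or without replicate 2 or 3 of *VHL+/+* PBRM1 shRNA (log2 fold changes 0.52 to 0.71, limma adjusted p 0.0701 to 0.191). The second was lost without replicate 2 or 3 of either PBRM1 shRNA group (0.59 to 0.71, limma adjusted p 0.0639 to 0.141). Both were lost without the chip term (limma adjusted p = 0.0598 and 0.0572) and within chip 1 (0.0811 and 0.107), and the second also on the arrays of that contrast alone (0.103). The KDM5C difference in *VHL-/-* cells, 0.50 ± 0.16 (limma adjusted p = 0.0806), passed without replicate 3 of that group (0.72, 0.00778) and within chip 1 (0.72, 0.0172). AKR1B10 and AKR1B15 correlated with r = 0.91 over the 18 arrays and 0.72 within groups, and whether their probes share signal was not tested.

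AKR1B1, the aldose reductase that turns glucose into sorbitol, moved the other way. On 2 arrays it sat at the table maximum of 14.66, which can compress differences at the top. In *VHL-/-* cells it read 14.60, 14.55 and 14.42 with SCR, 13.90, 13.56 and 14.01 with PBRM1 shRNA and 14.36, 14.09 and 13.83 with KDM5C shRNA. In *VHL+/+* cells it read 14.66, 14.34 and 14.66 with SCR, 14.60, 14.10 and 14.21 with PBRM1 shRNA and 14.17, 14.24 and 14.45 with KDM5C shRNA. Both shRNA groups lay wholly below SCR in *VHL-/-* cells and overlapped it in *VHL+/+* cells. The PBRM1 shRNA difference in *VHL-/-* cells was called, at -0.70 ± 0.15 (1.62-fold lower, limma adjusted p = 0.0120). That call was lost without replicate 2 of *VHL-/-* PBRM1 shRNA (-0.56, limma adjusted p = 0.0783) and without replicate 1 (-0.66, 0.0589) or 2 (-0.69, 0.0522) of *VHL-/-* SCR. The differences in the other contrasts were -0.25 ± 0.15 (PBRM1 shRNA in *VHL+/+*), -0.43 ± 0.15 (KDM5C shRNA in *VHL-/-*) and -0.26 ± 0.15 (KDM5C shRNA in *VHL+/+*), and none passed. The PBRM1 shRNA effect was not shown to differ between the backgrounds (difference 0.45, 95% confidence interval -0.01 to 0.91, limma adjusted p = 1.00).

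AKR1A1, the general aldehyde reductase that also handles glucuronate, had higher mean signal with both shRNAs without passing. Its SCR arrays read 9.74, 9.84 and 10.00 in *VHL-/-* and 10.00, 9.89 and 10.30 in *VHL+/+* cells. The *VHL-/-* arrays with PBRM1 shRNA read 10.35, 10.43 and 10.08 and those with KDM5C shRNA 10.31, 9.98 and 10.55. The *VHL+/+* arrays read 10.04, 10.25 and 10.72 with PBRM1 shRNA and 10.52, 10.09 and 10.47 with KDM5C shRNA. As deposited, SCR and shRNA groups overlapped in each background except for PBRM1 shRNA in *VHL-/-* cells, where all 3 arrays exceeded SCR. After removal of the chip difference 3 of the 4 shRNA groups lay wholly above their SCR group, PBRM1 shRNA in *VHL-/-* cells only just (lowest 9.93 against a highest SCR array of 9.92), and PBRM1 shRNA in *VHL+/+* cells overlapped SCR. The log2 fold changes against SCR, in the order given above, were 0.43, 0.27, 0.42 and 0.30 (SE 0.15 each, limma adjusted p of 0.128 or more). The first passed without replicate 3 of *VHL-/-* PBRM1 shRNA (0.64, limma adjusted p = 0.00917) and within chip 1 (0.60, 0.0408).

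AKR1C3, which makes testosterone from androstenedione and prostaglandin F, was the 1 member called between the chips. Its chip 2 arrays lay above both chip 1 arrays in all 6 groups, by 1.28 ± 0.12 in the fit (limma adjusted p = 2.5e-06). The *VHL-/-* arrays read 8.77, 8.67 and 9.78 with SCR, 8.30, 8.42 and 9.02 with PBRM1 shRNA and 8.79, 8.63 and 9.68 with KDM5C shRNA. The *VHL+/+* arrays read 9.16, 9.01 and 10.59 with SCR, 8.86, 8.45 and 10.24 with PBRM1 shRNA and 8.50, 8.64 and 10.45 with KDM5C shRNA. The log2 fold changes against SCR were -0.50, -0.40, -0.04 and -0.39 (SE 0.19 each) in the order above, and none passed (limma adjusted p of 0.164 or more). Within the chips, the PBRM1 shRNA difference in *VHL-/-* cells was -0.36 on chip 1 and -0.77 on chip 2. For VHL the differences were 0.51 ± 0.19 in SCR, 0.60 ± 0.19 with PBRM1 shRNA and 0.16 ± 0.19 with KDM5C shRNA, none of which passed. Their average, added after the data were seen, was 0.42 ± 0.11 (limma adjusted p = 0.0188), a fold of 1.34 and so below the fold threshold.

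**Figure D3:**
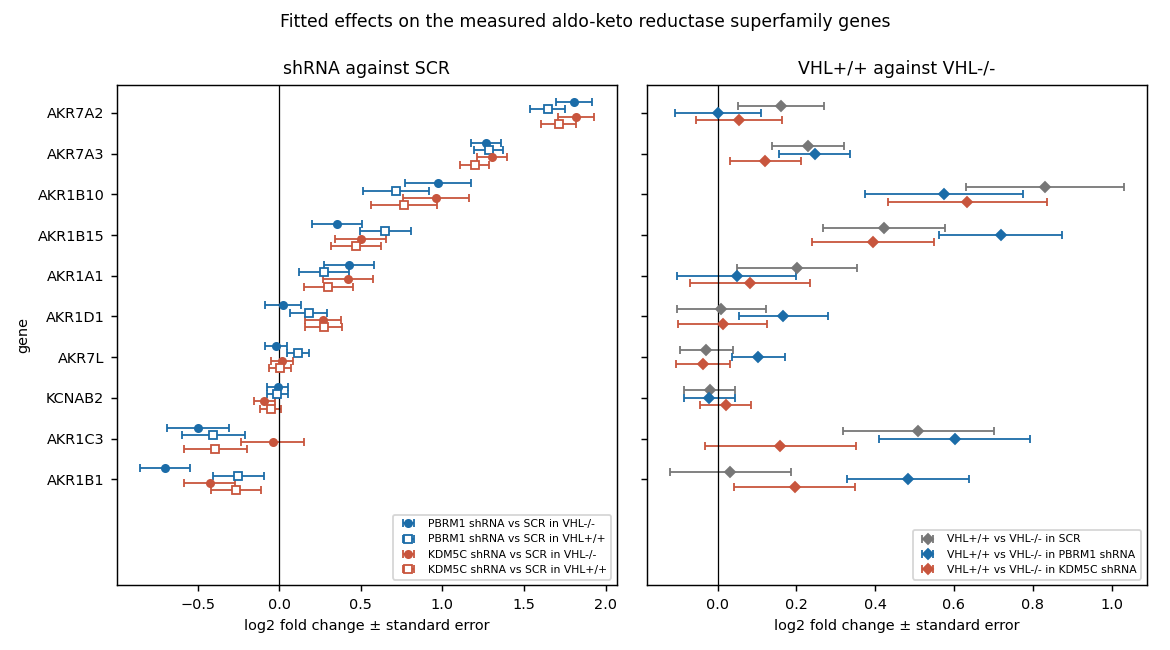
Log2 fold change with its standard error (x axis) of the 10 measured aldo-keto reductase superfamily genes, for the 4 shRNA contrasts (left; filled circles *VHL-/-*, open squares *VHL+/+*) and the 3 VHL contrasts (right). AKR7A2 and AKR7A3 lead on the left and lie between 0.00 and 0.25 on the right, AKR1B10 and AKR1B15 lie above 0 on both sides, and AKR1B1 lies below 0 on the left.

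Of 12 other symbols of the superfamily, 4 had a row, namely AKR1B15 above, AKR1D1, AKR7L and KCNAB2. AKR1D1, the steroid 5-beta reductase of bile acid synthesis, differed from SCR by 0.02 to 0.27 on the log2 scale over the 4 shRNA contrasts. KCNAB2, a potassium channel beta subunit built on the aldo-keto reductase fold, differed by -0.09 to -0.01. AKR7L, the third AKR7A gene of the cluster, listed in the table under its older name AFAR3, lay at group means of 6.69 to 6.80 near the floor of the table and differed by -0.02 to 0.11. None of the 3 was called in any contrast, and no call among 3 genes is near the shares of all genes given above.

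The rise of AKR7A2 and AKR7A3 was not seen in the measured genes beside them. In order along chromosome 1 these are IFFO2, UBR4, EMC1, MRTO4 and AKR7L on one side and SLC66A1, CAPZB, NBL1, TMCO4 and RNF186 on the other. None of these 10 genes was called higher in any of the 4 shRNA contrasts. Of all genes 0.921%, 0.639%, 0.807% and 0.715% were called higher in the order above, so the absence of calls among 10 genes is near that share. Their median log2 fold changes were -0.11, -0.05, -0.12 and -0.06 in the same order. SLC66A1, a lysosomal amino acid transporter next to AKR7A2, differed by -0.12 to -0.02. Like AKR7L on the other side of the pair, SLC66A1, TMCO4 and RNF186 lay near the floor of the table, with group means of 6.68 to 6.99. A change in these genes could therefore be missed. UBR4, a ubiquitin ligase, differed by -0.30 and -0.18 in *VHL-/-* cells and by 0.33 and 0.44 in *VHL+/+* cells with PBRM1 and KDM5C shRNA, without passing. NBL1, a secreted BMP antagonist, was called lower with PBRM1 shRNA in *VHL+/+* cells (-0.64 ± 0.13, limma adjusted p = 0.0108, beside 0.304% of all genes called lower). This call was lost without replicate 1 of *VHL+/+* SCR (-0.53, limma adjusted p = 0.0736) or replicate 2 of *VHL+/+* PBRM1 shRNA (-0.55, 0.0808), without the chip term (0.0576) and within chip 1 (0.0618). With KDM5C shRNA in *VHL+/+* cells NBL1 differed by -0.53 (limma adjusted p = 0.0285), under the fold threshold. That difference was called without replicate 2 of *VHL+/+* SCR (-0.60, limma adjusted p = 0.0342) or of *VHL+/+* KDM5C shRNA (-0.59, 0.0490). In *VHL-/-* cells the NBL1 group means were 10.09 with SCR, 9.77 with PBRM1 shRNA and 9.80 with KDM5C shRNA, and neither difference was called. IFFO2 was called higher with VHL among KDM5C shRNA cells (0.73 ± 0.11, limma adjusted p = 0.00106), where 0.890% of all genes were called either way, and this call was lost on the arrays of that contrast alone (limma adjusted p = 0.0517). It was also higher with VHL in SCR (0.58, limma adjusted p = 0.00699) and with PBRM1 shRNA (0.51, 0.0160), both under the fold threshold. The SCR difference was called within chip 1 (0.59, limma adjusted p = 0.0316). In the average VHL comparison, added after the data were seen, IFFO2 was called (0.61, limma adjusted p = 6.5e-06, beside 0.342% of all genes called higher). That average fell under the fold threshold within chip 1 (0.57) and without some single arrays.

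**Figure D4:**
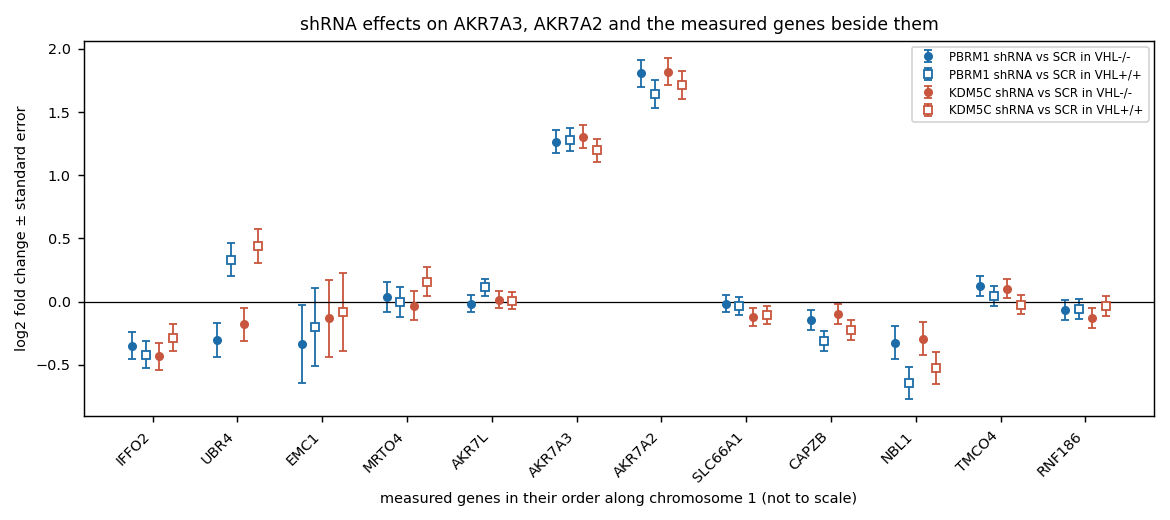
Log2 fold change with its standard error (y axis) in the 4 shRNA contrasts for AKR7A3, AKR7A2 and the 5 measured genes on each side, in chromosome order (x axis, not to scale). The pair stands between 1.20 and 1.82, and the other 10 genes between -0.64 and 0.44.

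Genes that share chemistry or regulation with the members were counted from 5 lists. Of 40 other carbonyl and aldehyde enzymes 34 had a row, and none was called in the 4 shRNA contrasts, with medians of 0.00 to 0.02. Over all genes the shares called in those contrasts, in the order above, were 0.921%, 0.639%, 0.807% and 0.715% higher and 0.890%, 0.304%, 0.654% and 0.426% lower. No call among 34 genes is near those shares. With VHL, 3 were called higher in SCR, 2 with PBRM1 shRNA and 2 with KDM5C shRNA, and none lower. Beside these counts, 0.342% of all genes were called higher in SCR, and 1.02% and 0.890% were called either way with PBRM1 and KDM5C shRNA. ALDH1A1, a retinal dehydrogenase, was higher by 1.31 ± 0.22 in SCR (limma adjusted p = 0.00415) and by 1.13 ± 0.22 with PBRM1 shRNA (0.0110). ALDH2, the mitochondrial acetaldehyde dehydrogenase, was higher by 0.81 ± 0.12 in SCR (limma adjusted p = 0.00184) and 0.68 ± 0.12 with KDM5C shRNA (0.00693). DHRS9, a retinol dehydrogenase, was higher by 0.60, 0.65 and 0.65 in the 3 conditions (SE 0.11 each, limma adjusted p of 0.00861 or less). All 3 genes were higher on chip 2 in most groups, and none of these calls held in a fit without the chip term. On the arrays of the contrast alone the calls of ALDH2 (limma adjusted p = 0.0888) and DHRS9 (0.0643) with KDM5C shRNA and of DHRS9 with PBRM1 shRNA (0.126) were lost, as was that of ALDH1A1 with PBRM1 shRNA, and within chip 1 ALDH2 with KDM5C shRNA (0.52) and DHRS9 with PBRM1 shRNA (0.44) were under the fold threshold. Omission of 1 array ended the ALDH1A1 call with PBRM1 shRNA (without *VHL+/+* replicate 3, 1.03, limma adjusted p = 0.0794) and took ALDH2 with KDM5C shRNA under the fold threshold (without *VHL+/+* replicate 3, 0.55). It also took DHRS9 under that threshold in SCR (without *VHL+/+* replicate 2, 0.57, or *VHL-/-* replicate 3, 0.57), with PBRM1 shRNA (without replicate 3 of *VHL+/+*, 0.54, or *VHL-/-*, 0.51) and with KDM5C shRNA (without *VHL+/+* replicate 3, 0.57). In the other direction, the ALDH1A1 difference with KDM5C shRNA (0.86) passed without replicate 3 of *VHL-/-* SCR, PBRM1 shRNA or KDM5C shRNA, and the ALDH2 difference with PBRM1 shRNA (0.56) without *VHL-/-* replicate 2 (0.68). Of 10 genes around succinic semialdehyde, the AKR7A2 substrate, 6 had a row and none was called in the 4 shRNA or 3 VHL contrasts. Among 6 genes, no call is near the shares of all genes given above.

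Of 9 genes of the NRF2 regulators 6 had a row, and none was called in the 4 shRNA or 3 VHL contrasts. Of 35 NRF2 targets outside the superfamily 34 had a row, and their median log2 fold changes in the shRNA contrasts lay between -0.01 and 0.02. Called higher were 1, 2, 2 and 1 of them and called lower 1, 0, 1 and 0, in the order above, and none was called for VHL. Of all genes 0.921%, 0.639%, 0.807% and 0.715% were called higher and 0.890%, 0.304%, 0.654% and 0.426% lower in the same order. For VHL, 0.342% of all genes were called higher and 0.685% lower in SCR, and 1.02% and 0.890% either way with PBRM1 and KDM5C shRNA. The absence of calls among the 6 regulators, and for VHL among the 34 targets, is near those shares. PIR, the iron-binding nuclear protein pirin, rose in all 4 contrasts, by 0.62, 0.83, 0.60 and 0.70 (SE 0.13 each, limma adjusted p = 0.0113, 0.00268, 0.0150 and 0.00844). Its SCR arrays read 8.62, 8.62 and 8.74 in *VHL-/-* and 8.44, 8.25 and 8.51 in *VHL+/+* cells, all below the 12 shRNA arrays, which ran from 8.87 to 9.44. PIR lost its PBRM1 call in *VHL-/-* cells without replicate 1 (0.57) or 2 (0.52) of that shRNA group, and its KDM5C call in *VHL-/-* cells without replicate 1 or 2 of *VHL-/-* SCR (0.59 each) or replicate 3 of the shRNA group (0.55), and within chip 1 (0.58, limma adjusted p = 0.0713). The KDM5C call in *VHL+/+* cells was lost without replicate 1 of the shRNA group (0.57). GSTP1, a glutathione transferase, fell in *VHL-/-* cells by -0.69 ± 0.13 with either shRNA (limma adjusted p = 0.00444 and 0.00437), and dropped under the fold threshold without replicate 3 of PBRM1 shRNA (-0.49) or replicate 2 of KDM5C shRNA (-0.56), and with PBRM1 shRNA also within chip 1 (-0.53). UGT1A6, a glucuronosyltransferase whose exons are partly shared with other UGT1A genes, rose with KDM5C shRNA in *VHL-/-* cells by 0.70 ± 0.13 (limma adjusted p = 0.00307; 0.57 without replicate 1 of the shRNA group), a call lost without the chip term (0.0565) and on the arrays of that contrast alone (0.0642). ABCC3, an efflux pump for conjugates, rose with PBRM1 shRNA in *VHL+/+* cells by 0.70 ± 0.15 (limma adjusted p = 0.0161), a call lost without replicate 2 of *VHL+/+* SCR (0.57) or replicate 3 of the shRNA group (0.53), without the chip term (limma adjusted p = 0.398) and within chip 1 (0.0584).

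Of 22 enzymes of steroid, prostaglandin or retinoid metabolism, 18 had a row, and their medians in the shRNA contrasts lay between -0.06 and 0.03. Called higher was 1 in each contrast, the same gene SRD5A1, the steroid 5-alpha reductase. Beside these counts, 0.921%, 0.639%, 0.807% and 0.715% of all genes were called higher, in the order above. Called lower were 0.890%, 0.304%, 0.654% and 0.426% of all genes. SRD5A1 rose by 0.75, 0.61, 0.61 and 0.81 (SE 0.11 each, limma adjusted p = 0.000847, 0.00677, 0.00425 and 0.000738). Its SCR arrays ran from 7.36 to 7.80 and its shRNA arrays from 7.90 to 8.49 without overlap. The PBRM1 call in *VHL+/+* cells fell under the fold threshold without replicate 2 of SCR (0.57) or replicate 1 of the shRNA group (0.55), and the KDM5C call in *VHL-/-* cells without replicate 2 of SCR (0.53) or replicate 3 of the shRNA group (0.50), and within chip 1 both were lost (limma adjusted p = 0.0642 and 0.0944). PTGES, the inducible prostaglandin E synthase, was lower by -0.65, -0.74 and -0.71 (SE 0.15 each, limma adjusted p = 0.0174, 0.0126 and 0.0153) with PBRM1 shRNA in *VHL-/-* and *VHL+/+* cells and with KDM5C shRNA in *VHL+/+* cells. Each PTGES call was lost without replicate 3 of its shRNA group and without 1 SCR array (replicate 1 in *VHL-/-*, replicate 3 in *VHL+/+*), at -0.68 to -0.47, and the last also without replicate 2 of its shRNA group (-0.70). Without the chip term all 3 were lost (limma adjusted p = 0.306, 0.308 and 0.263), within chip 1 all 3 were under the fold threshold (-0.56, -0.44 and -0.49), and the second was lost on the arrays of that contrast alone (0.0533). None of the 18 was called for VHL. There 0.342% of all genes were called higher and 0.685% lower in SCR, and 1.02% and 0.890% either way with PBRM1 and KDM5C shRNA. No call among 18 genes is near those shares.

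**Figure D5:**
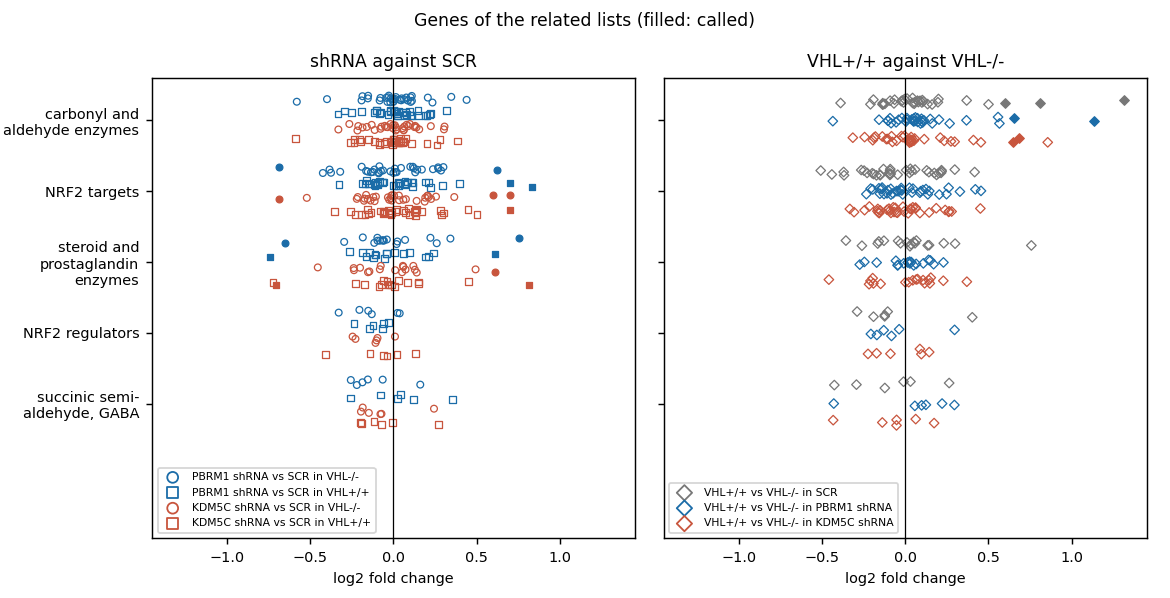
Log2 fold change (x axis) of every measured gene of the 5 related lists, in the 4 shRNA contrasts (left) and the 3 VHL contrasts (right), with 1 row of points for each contrast and filled points for called genes. Most genes lie around 0; the filled points on the left belong to PIR, UGT1A6, ABCC3, GSTP1, SRD5A1 and PTGES, and those on the right to ALDH1A1, ALDH2 and DHRS9.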

How the data were processed

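Per the labels and the study's methods, the authors ran Illumina HumanHT-12 V4 arrays, exported them from GenomeStudio, background-corrected them to positive values in limma, took log2 values, quantile normalised them, discarded probes that missed a detection p-value cutoff of 0.05 and then took the mean of the probes per gene. Whether the deposited log2 values were corrected for batch is not given in the sources used here. Nothing else was normalised. limma 3.58.1 in R 4.3.3 (lmFit and eBayes) fitted 6 group terms and the chip to 18 arrays, with 11 residual degrees of freedom and Benjamini-Hochberg adjustment over 13141 genes within each contrast. A call needed adjusted p under 0.05 and a fold of 1.5. The model fit was tested on simulated data with planted changes, and the other steps were not. The number of arrays, 3 a group, limits the precision. The fits were repeated with the chip left out or replaced by the replicate number, on 1 chip, with other thresholds, filters and normalizations, and without each array in turn. The members and lists were chosen with earlier results of these data known. Named were all members, superfamily genes with a row, chromosome neighbours, at most 4 called genes per list by size of change, and the 5 genes most like each AKR7A gene. Gene names and promoters came from RefSeq. Proteins of the members were not analysed here.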

Additional observations from a re-analysis of the deposited data

How the results depend on the processing

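The signs of all member values that were called stayed the same under every alternative run. The AKR7A2 and AKR7A3 rises kept their sign and a fold above 1.5 in all 28, with log2 fold changes of 1.51 to 1.90 for AKR7A2 and 1.15 to 1.43 for AKR7A3. With a fold threshold of 2, members called with PBRM1 shRNA in *VHL-/-* cells went from 4 to 2 and members called for VHL in SCR from 1 to 0, as they did without the chip term (AKR1B10, limma adjusted p = 0.0734). Members called with KDM5C shRNA went from 3 to 2 in both backgrounds at that fold, and in *VHL+/+* cells also without the chip term (AKR1B10, 0.0847) or within chip 1 (0.0563). For the average VHL comparison, added after the data were seen, the number was 1, and became 0 with a fold threshold of 2 or within chip 1 and 3 with no fold threshold. With 1 array left out, the members called were 2 to 5 (PBRM1 shRNA, *VHL-/-*), 2 to 3 (PBRM1 shRNA, *VHL+/+*), 2 to 3 (KDM5C shRNA, either background), 0 to 1 (VHL in SCR), 0 to 0 (VHL with PBRM1 shRNA), 0 to 1 (VHL with KDM5C shRNA) and 1 to 1 (average VHL); it was 0 throughout between the shRNAs and for the differences between backgrounds. Over all genes, a fold threshold of 2 left 57, 21, 43 and 23 of 238, 124, 192 and 150 calls in the shRNA contrasts, and no chip term left 88 of the last 150 and 60, 39 and 54 of 135, 134 and 117 for VHL. Equally numbered arrays deviated together in part, with correlations from -0.172 to 0.722 (medians 0.150, 0.283 and 0.521 for numbers 1, 2 and 3). Of 18 arrays, 12 correlated best with their own number. The chip was not removed from these deviations, and every array numbered 3 was on chip 2. For number 3, and so in part for the 12 arrays, pairing and chip cannot be told apart. Not every pair of equally numbered arrays deviated together, so the arrays were not treated as paired. Fitting the replicate block and no chip left the numbers of members called at 4, 2, 3 and 3 for the shRNAs and at 1, 0 and 0 for VHL, with 233, 123, 191 and 146 genes called for the shRNAs. Arrays give no depth. AKR7L, SLC66A1, TMCO4 and RNF186 lay near the floor of the table and AKR1B1 at its ceiling, where differences can be understated.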
